A study of Mus musculus with 10 samples.

Results

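Id proteins and the bone morphogenetic protein (BMP) pathway were followed in 4T1, an established line of mouse mammary carcinoma cells, grown in collagen gels of low or high density. The set held 10 genes of the 30142 symbols named on the array. They were Id1, Id2, Id3 and Id4, the inhibitory SMADs Smad6 and Smad7, the ligand Bmp4, the pseudoreceptor Bambi, and the receptors Bmpr1a and Bmpr2. The genes were named by list, and each gene's array row was chosen by its mean signal over all 10 arrays, the highest being kept. Each of the 10 had a single row that named it alone, so this choice left no row out. The list was drawn up with the large rise of Id1 already known. The difference of Id1 is therefore given as a description with no test.

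The low-density group (LD) was 4T1 cells in gels with 2 mg of collagen per mL and the high-density group (HD) the same cells at 3.5 mg per mL, with 5 arrays in each. Both groups started from 50000 cells, and both were kept for 5 days in RPMI 1640 medium with fetal bovine serum. The model is 1 carcinoma line in a gel of collagen, and the labels do not tell whether the 5 replicates of a density were cultured separately. The p-values therefore reflect only the variation among these arrays, part or all of which could be technical, and 5 arrays per group limit the precision. Values are log2 signals made by RMA, a method that subtracts background, equalises the arrays and summarises a gene's probes. RMA compresses differences, so a fold here is a ratio of RMA signals and not of RNA amounts.

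BMP ligands bind a pair of type I and a pair of type II serine/threonine kinase receptors at the cell surface. The type I receptor then phosphorylates SMAD1, SMAD5 or SMAD9, which join SMAD4 and enter the nucleus. The Id genes are among the most direct targets of this route, and they also answer to serum and other growth factors. An Id protein carries a helix-loop-helix but no DNA-binding region. It pairs with E proteins such as the product of Tcf3 and keeps them and their partners from binding DNA. SMAD6 and SMAD7 and the pseudoreceptor BAMBI are induced by the pathway and damp it. In mammary tumour cells, Id1 and Id3 are known for roles in growth and metastatic outgrowth.

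Across the 18119 genes tested with limma, 50.2% differed between the densities at an adjusted p under 0.05 (Benjamini-Hochberg), 31.1% being higher and 19.2% lower in HD. The 5 HD values lay wholly above or wholly below the 5 LD values for 36.2% of genes. The median log2 change of all genes was 0.056, and the median SD within a group was 0.07. The share of higher genes among the calls was 61.8% as deposited, 72.3% after quantile normalization and 72.8% when each array was scaled on its control rows. Control features moved with the groups. Negative control rows had array medians of 5.61 to 5.75 in LD and 5.26 to 5.58 in HD. Background rows had array medians of 3.40 to 3.54 and 3.58 to 3.72. Positive control rows had array medians of 9.20 to 9.23 in LD and 9.24 to 9.35 in HD. Scaling each array on its control rows sets the negative and positive medians equal across arrays. Dim and bright signals therefore shift by unlike amounts. All 7 epithelial markers had signal above the floor of 5.16 used for testing, and none of the 5 endothelial markers did. The mean of the epithelial list was 10.90 to 10.93 in LD and 10.47 to 10.57 in HD, with 5 of its genes lower in HD. Of the 7 fibroblast markers, 6 had a row that named them alone, 4 lay above the floor and 2 were higher in HD, with a list mean of 5.00 to 5.13 in LD and 5.07 to 5.27 in HD. Of the macrophage markers, 2 of 6 lay above it, 1 higher and 1 lower, with a list mean of 5.47 to 5.50 and 5.41 to 5.51. Their part in the results below was not tested, and fewer cells of a kind cannot be told apart from less RNA per cell.

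Of the 10 genes, 9 had a mean signal above the floor and entered the test over all genes, and Bambi lay below it. Id1, whose rise was known when the list was made, is left out of the counts. Of the other 8 tested, 3 were higher in HD (Id2, Id3 and Bmp4) and 1 lower (Bmpr2), beside 31.1% and 19.2% of all genes. The remaining 4, Id4, Smad6, Smad7 and Bmpr1a, did not pass. The arrays of the 2 groups did not overlap for 2 of the 8, Id2 and Id3, beside 36.2% of all genes. The list was made with results of this comparison known, so these counts are descriptions.

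**Figure D1:**
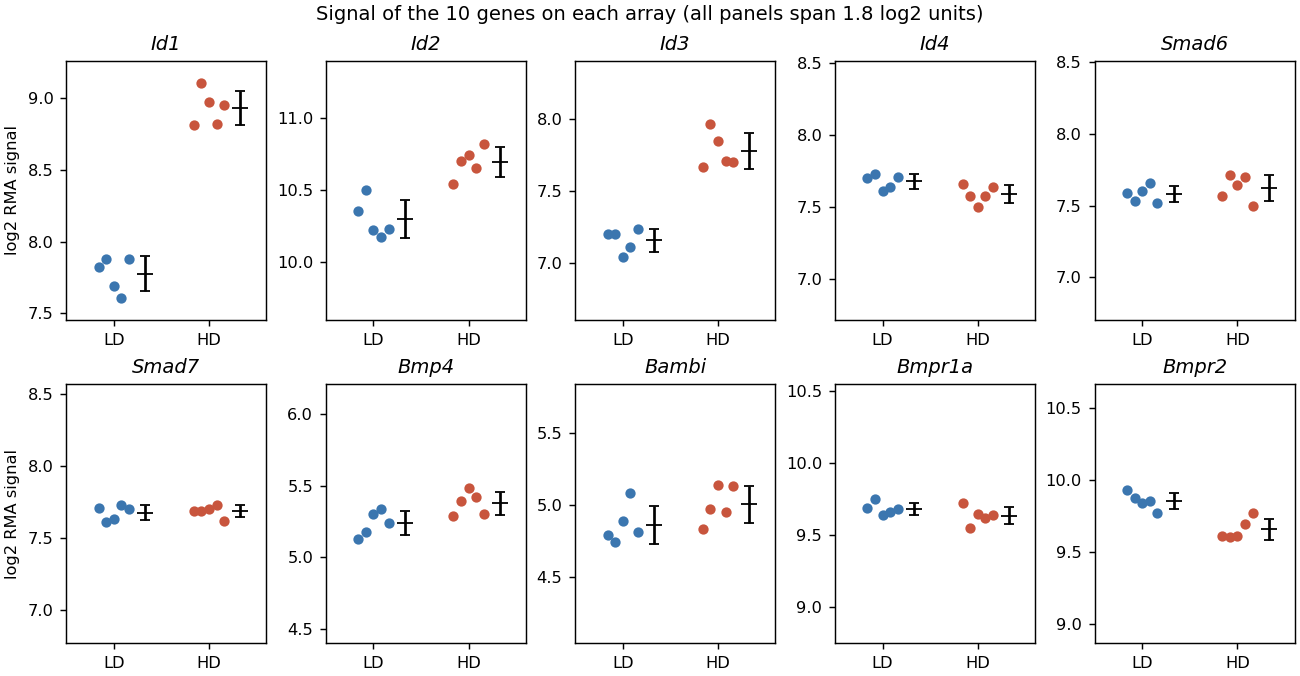
Log2 RMA signal of the 10 genes on each array, with LD (2 mg/mL collagen, blue) on the left and HD (3.5 mg/mL, red) on the right of each panel. Points are single arrays in the order of their replicate numbers, and the bar beside them is the mean ± SD (n = 5). All panels span the same log2 range, so heights can be compared between panels, while levels cannot. The HD points lie above all LD points for Id1, Id2 and Id3.

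The promoters of the Id genes are shown first because Id2 and Id3 rose together and Id4 did not. Promoters from RefSeq's table (build GRCm38.p6) were read for 7 of the 10 genes: Id2, Id3, Id4, Smad6, Bmp4, Bmpr1a and Bmpr2. The table held no entry for Id1. The chromosome that carries Smad7 and Bambi was left out when the genes were looked up, so their promoters were not read. Each line below is the 250 bases before the annotated start, written 5′ to 3′ in the direction of the gene. Id2 lies on the minus strand at chr12:25096093-25096342, Id3 on the plus strand at chr4:136143572-136143821 and Id4 on the plus strand at chr13:48260866-48261115. Capitals mark matches, on either strand, to any of 5 motifs. The GC-rich element bound by SMAD proteins was searched as GGCGCC. The SMAD box, a shorter element for SMAD3 and SMAD4, was searched as CAGAC. The TATA box, which positions the polymerase, was searched as TATAAA. The GC box, bound by SP1 and related factors, was searched as GGGCGG. The core of the cyclic AMP response element was searched as TGACG.

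Id2: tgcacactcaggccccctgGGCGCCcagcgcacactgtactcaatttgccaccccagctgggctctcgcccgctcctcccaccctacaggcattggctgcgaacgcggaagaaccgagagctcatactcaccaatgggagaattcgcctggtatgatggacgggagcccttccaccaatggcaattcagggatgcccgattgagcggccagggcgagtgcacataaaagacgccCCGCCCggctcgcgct

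Id3: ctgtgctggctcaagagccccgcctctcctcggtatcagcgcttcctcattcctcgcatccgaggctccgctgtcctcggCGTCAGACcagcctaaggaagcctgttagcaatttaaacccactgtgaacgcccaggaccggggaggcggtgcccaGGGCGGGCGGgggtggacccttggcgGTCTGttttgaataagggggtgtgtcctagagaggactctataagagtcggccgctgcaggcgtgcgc

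Id4: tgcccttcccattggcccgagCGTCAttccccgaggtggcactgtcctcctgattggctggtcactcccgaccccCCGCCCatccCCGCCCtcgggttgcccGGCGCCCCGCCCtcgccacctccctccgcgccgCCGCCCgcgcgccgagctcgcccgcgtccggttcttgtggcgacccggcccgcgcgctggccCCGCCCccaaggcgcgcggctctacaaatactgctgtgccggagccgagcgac

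The promoter of Id2 held 1 GGCGCC match, 231 to 226 bases before the start, and 1 GC box match. The promoter of Id3 held no GGCGCC but 2 CAGAC matches, at 167 to 163 and, on the opposite strand, 68 to 64 bases before the start. The first of these overlaps a TGACG match at 170 to 166. Its 2 GC box matches also overlap each other, at 94 to 89 and 90 to 85. The promoter of Id4 held 1 GGCGCC match, 5 GC box matches and 1 TGACG match. None of the 3 held TATAAA.

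No motif was held by the promoters of both risers, Id2 and Id3, and absent from that of Id4. Over the 32851 promoters of the table, the same 250-base window held GGCGCC in 9.59%, CAGAC in 42.2%, TATAAA in 12.4%, GGGCGG in 32.7% and TGACG in 17.8%. Among the 7 genes whose promoters were read, GGCGCC was in 4 (Id2, Id4, Bmpr1a and Bmpr2) and CAGAC in 1 (Id3). TGACG was in 2 (Id3 and Id4), TATAAA in 0 and GGGCGG in 7. These counts leave out Smad7 and Bambi, whose chromosome was not searched, while the shares over the table left out no chromosome. The GC content was 62.8% for Id2 and for Id3 and 75.6% for Id4, beside a median of 52.4% over the table. It was 66.8% for Smad6, 63.2% for Bmp4, 78.8% for Bmpr1a and 64.0% for Bmpr2, so all 7 lay above that median. GGCGCC and GGGCGG hold only G and C, and the part of GC content in their counts was not tested. A match describes letters and does not show that a factor binds there, and these windows do not reach more distant elements.

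Id1, the member of the family most often used as a readout of BMP signalling, had the largest difference of the 10 genes. Its log2 signal on the LD arrays 1 to 5 was 7.82, 7.88, 7.69, 7.61 and 7.88, and on the HD arrays 8.81, 9.10, 8.97, 8.82 and 8.95. Every HD array lay above every LD array, and the lowest HD value stood well clear of the highest LD value. The LD mean of 7.78 ± 0.119 (SD, n = 5) and the HD mean of 8.93 ± 0.119 gave a log2 difference of 1.15 ± 0.0647 SE, or 2.22-fold with a 95% interval of 2.02 to 2.45. Among the rises of all genes tested it ranked 4. The SE and interval of Id1 are descriptions and not a test, since its rise was known beforehand.

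Id3, which shares with Id1 a known role in tumour vessel growth, was also higher in HD. Its signal was 7.20, 7.20, 7.04, 7.11 and 7.24 on the LD arrays and 7.67, 7.97, 7.85, 7.71 and 7.70 on the HD arrays. The groups did not overlap, and HD array 2 was the highest for Id3 as it was for Id1. The means of 7.16 ± 0.0802 (SD, n = 5) and 7.78 ± 0.127 differed by 0.62 ± 0.0592 SE on the log2 scale, 1.54-fold (limma adjusted p = 1.9e-06). This rise ranked 107 among all genes tested.

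Id2, which can also bind the retinoblastoma protein, rose by less. Its signal was 10.35, 10.50, 10.22, 10.17 and 10.23 in LD and 10.54, 10.70, 10.74, 10.65 and 10.82 in HD. The groups did not overlap, but the highest LD array, LD 2, came close to the lowest HD array, HD 1. The means of 10.30 ± 0.133 (SD, n = 5) and 10.69 ± 0.105 differed by 0.39 ± 0.0648 SE, 1.31-fold (limma adjusted p = 2e-04). With the arrays scaled on their control rows the difference was 0.22 (limma adjusted p = 0.012), so its size depends on the scaling.

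Id4, which in breast tissue is linked to the control of luminal differentiation and can oppose the other Id proteins, did not follow them. Its signal was 7.70, 7.73, 7.61, 7.64 and 7.71 in LD and 7.66, 7.58, 7.50, 7.58 and 7.64 in HD. The groups overlapped. The difference of -0.086 ± 0.0401 SE did not pass the test (limma adjusted p = 0.089), and its 95% interval of -0.17 to 0.001 includes a small fall. It was -0.022 after quantile normalization and -0.014 with the control-row scaling.

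The difference between the changes of Id2, Id3 and Id4 was tested within arrays by subtracting one gene's log2 value from the other's and comparing the 5 HD with the 5 LD differences. Id2 minus Id3 was 3.14 in LD and 2.91 in HD, so the change of Id2 was smaller than that of Id3 by 0.22 (-0.22 ± 0.0835 SE, two-sided exact permutation p = 0.032, adjusted 0.032 over 3 pairs). Id2 minus Id4 rose by 0.48 ± 0.0758 SE and Id3 minus Id4 by 0.70 ± 0.0781 SE. For both, the two-sided exact permutation p was 0.0079, the smallest that 5 against 5 arrays can give (adjusted 0.012). For Id1, as a description, the change exceeded that of Id3 by 0.53, that of Id2 by 0.76 and that of Id4 by 1.24.

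**Figure D2:**
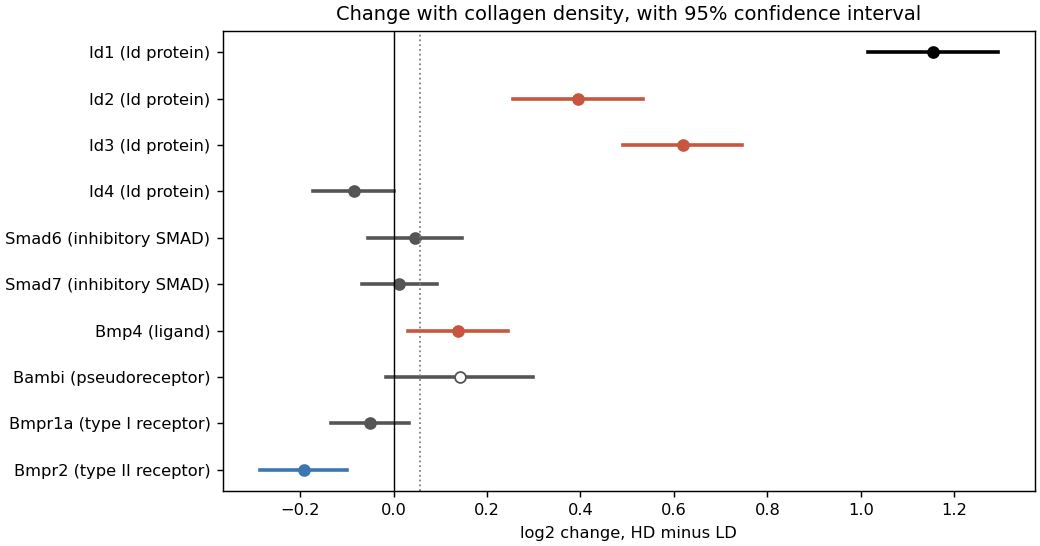
Log2 change (HD minus LD) of the 10 genes, with points for the limma estimate and lines for its 95% confidence interval. Black marks Id1, given as a description, red genes called higher, blue genes called lower and grey genes that did not pass. The open point marks Bambi, whose signal lay below the floor, and the dotted line is the median of all genes tested (0.056). The intervals of Id3 (0.49 to 0.75) and Id2 (0.26 to 0.53) lie above 0, and those of Smad6 and Smad7 include 0.

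Neither inhibitory SMAD passed the test. Smad6, which blocks BMP receptors and SMAD1, had signals of 7.59, 7.53, 7.60, 7.66 and 7.52 in LD and 7.57, 7.71, 7.64, 7.70 and 7.50 in HD. Both the highest and the lowest of the 10 values were HD arrays. The difference was 0.047 ± 0.0468 SE (limma adjusted p = 0.42), and the 95% interval of -0.05 to 0.15 contains no fold above 1.11. Smad7, which acts on both the BMP and the TGF-beta route, had signals of 7.71, 7.61, 7.63, 7.73 and 7.70 in LD and 7.69, 7.69, 7.70, 7.73 and 7.62 in HD. These ranges nearly coincide. The difference was 0.013 ± 0.0371 SE (limma adjusted p = 0.79, 95% interval -0.067 to 0.092). After quantile normalization the differences of Smad6 and Smad7 were 0.11 and 0.073, and neither passed (adjusted p = 0.062 and 0.087). Bambi, which has a receptor's extracellular part but no kinase, was dim, at 4.74 to 5.08 in LD and 4.83 to 5.14 in HD. It lay below the floor and below the medians of the negative control rows in both groups. In the fit without a floor its difference of 0.14 ± 0.0729 SE did not pass (limma adjusted p = 0.16), and no fold is given.

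Bmp4, the ligand of the set, was also close to the background of the array. Its signal was 5.13, 5.18, 5.30, 5.34 and 5.24 in LD and 5.29, 5.39, 5.48, 5.42 and 5.30 in HD. The groups overlapped, the LD values lay below the LD median of the negative control rows (5.67), and the HD mean of 5.37 lay just below their HD median (5.42). The difference of 0.14 ± 0.0496 SE passed the test (limma adjusted p = 0.034). The call was lost without the floor (adjusted p = 0.059), with ordinary t statistics (0.062) and when any of LD arrays 1, 2 and 5 or HD arrays 2, 3 and 4 was left out (adjusted p = 0.057 to 0.091). On the control-row scaling the difference was 0.41 (adjusted p = 0.0016). Background rows averaged 3.47 in LD and 3.63 in HD, negative control rows 5.67 and 5.42, and their part in the difference of Bmp4 was not tested.

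Of the receptors, Bmpr2, the type II receptor that starts the signal, was lower in HD. Its signal was 9.93, 9.87, 9.84, 9.85 and 9.77 in LD and 9.61, 9.60, 9.61, 9.69 and 9.77 in HD. The groups met at the lowest LD array and the highest HD array, both of replicate 5. The means of 9.85 ± 0.0577 (SD, n = 5) and 9.66 ± 0.0725 differed by -0.19 ± 0.0432 SE, 1.14-fold lower (limma adjusted p = 0.0022). The difference was -0.30 with the control-row scaling (adjusted p = 0.00054). Bmpr1a, a type I receptor for BMP2 and BMP4, had signals of 9.69, 9.75, 9.64, 9.66 and 9.68 in LD and 9.72, 9.55, 9.65, 9.62 and 9.64 in HD. Its groups overlapped almost wholly. The difference of -0.050 ± 0.0387 SE did not pass (limma adjusted p = 0.29). It passed as lower after quantile normalization (-0.10, adjusted p = 0.037) and with the control-row scaling (-0.15, adjusted p = 0.017).

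**Figure D3:**
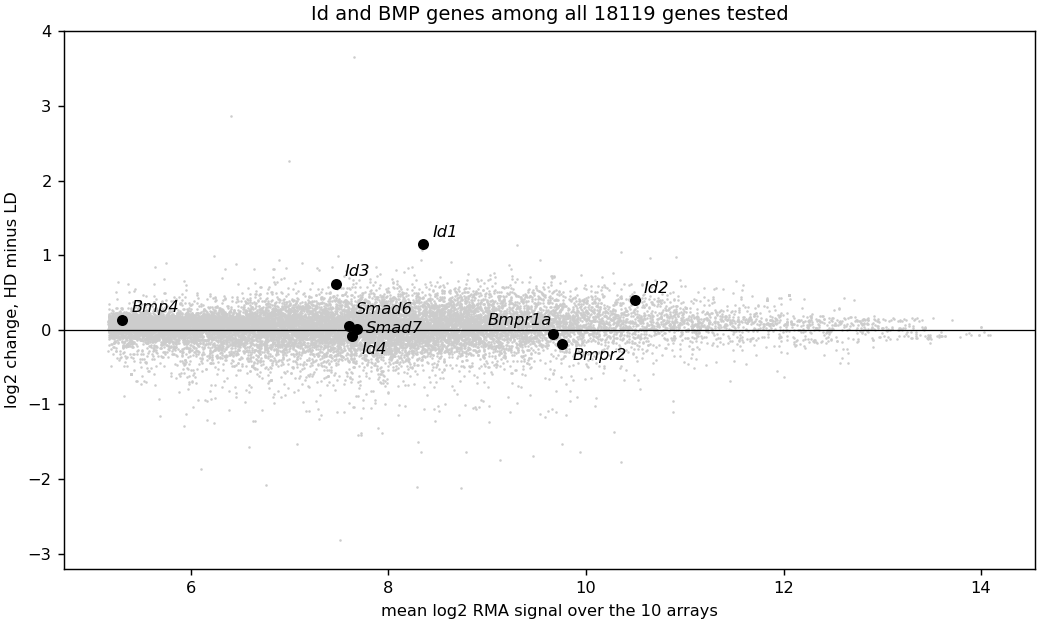
Log2 change (HD minus LD) against the mean log2 RMA signal over the 10 arrays for the 18119 genes tested (grey). The 9 Id and BMP genes above the floor are in black. Id1 and Id3 lie at the upper edge of the cloud, while Bmp4 sits at its dim end and Smad6, Smad7 and Id4 lie inside it.

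The 5 genes whose profile over the 10 arrays was most like that of Id1 were found by the root mean square difference of the log2 values, each gene being centred on its own mean. They were Atp1b1 (a sodium pump subunit, difference 0.13), Cycs (cytochrome c, 0.133), Timm8a1 (a mitochondrial import chaperone, 0.152), P3h2 (a collagen prolyl 3-hydroxylase, 0.154) and Pno1 (a ribosome assembly factor, 0.165). Their log2 changes were 1.07, 1.14, 0.93, 0.99 and 0.91. None was a gene of the BMP pathway lists, but the largest rise in those lists was 0.41 (Fst), so the size of the changes had settled this. The measure mostly reflects the size of the change between the densities, since all arrays of a group share it.

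The rest of the pathway was read from 7 lists of other genes by role, 110 genes in all, of which 98 had a row and 85 were tested. In HD, 28 of the 85 were higher and 14 lower, together 49.4%, beside 50.2% of all genes. The median log2 change was 0.10, beside 0.056 for all genes tested. The calls differed in direction with brightness. Among 37 dim genes, with a mean signal below 6.88, 15 were higher and 1 lower, and among 48 bright genes 13 were higher and 13 lower. Among all genes tested, 22.4% of the dim genes were higher and 13.2% lower, and 36.5% and 22.9% of the bright ones.

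Among the other BMP and GDF ligands, 3 of 9 tested genes were higher and 1 lower, together 44.4% beside 50.2% of all genes. Their median log2 change was 0.09. Bmp7 is a ligand that signals through type I receptors including the product of Acvr1. Its mean signal was 9.97 ± 0.0884 (SD, n = 5) under LD and 9.52 ± 0.0872 under HD. It was 1.36-fold lower at high density with no overlap of the groups (-0.45 ± 0.0516 SE on the log2 scale, limma adjusted p = 9.4e-06). Gdf11, an activin-like ligand that signals through SMAD2 and SMAD3, rose 1.31-fold from 6.74 to 7.13. Gdf5 and Bmp6 rose by 0.24 and 0.11 (limma adjusted p = 0.015 and 0.024) from signals of 5.58 and 5.86, near the negative control rows. The call of Bmp6 was lost without LD array 1, LD array 3 or HD array 3 (adjusted p = 0.069, 0.053 and 0.057). Gdf5 was not called with ordinary t statistics (adjusted p = 0.054). With the control-row scaling 8 ligands were higher, and the rises of Gdf5 and Bmp6 were 0.48 and 0.32. The difference of Bmp2 (0.020), mentioned with its value already known, did not pass.

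Many genes on the list of secreted antagonists encode proteins that hold ligands away from their receptors. Of 13 list genes tested, 7 were higher and 1 lower, together 61.5% beside 50.2% of all genes, with a median log2 change of 0.12. Fst (follistatin, which traps activins and some BMPs) rose by 0.41 ± 0.0447 SE from 5.70 ± 0.0784 (SD, n = 5) to 6.11 ± 0.06 (limma adjusted p = 6.4e-06), without overlap. Its LD signal lay near the negative control median, and with the control-row scaling the rise was 0.63. Nbl1, a DAN-family antagonist, rose 1.15-fold (limma adjusted p = 0.0031), and Sost (sclerostin) rose by 0.13 at a dim signal of 5.81, or by 0.35 with the control-row scaling. Fstl3, a follistatin relative, was 1.15-fold lower at 8.37 in LD and 8.17 in HD (limma adjusted p = 0.012). The count of 7 became 4 without the floor and without LD array 2 or HD array 3. It was 8 after quantile normalization and 10 with the control-row scaling. In this list 4 of the tested genes had an LD mean below the negative control median of 5.67.

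Of 10 tested receptors and co-receptors beyond the set, 0 were higher and 1 lower, or 10% beside 50.2% of all genes, with a median log2 change of 0.016. The count depends on the scaling, with 4 higher and 2 lower after quantile normalization and 3 higher with the control-row scaling. The gene that fell was Tgfbr3 (betaglycan, a co-receptor for TGF-beta and BMP ligands), by 0.29 from 6.83 to 6.54 (limma adjusted p = 0.002). It did not pass with the control-row scaling (-0.14, adjusted p = 0.14). The receptors Acvr1, Acvr2a and Acvr2b, named after their values were seen, differed by -0.057, 0.10 and 0.019 and did not pass. Bmpr1b lay below the floor at 4.01 in LD.

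Of 19 tested SMAD genes and regulators, 3 were higher and 6 lower, together 47.4% beside 50.2% of all genes. Their median log2 change was -0.054. The largest falls were those of Skil and Smad3. Skil (SnoN, a co-repressor that TGF-beta induces) went from 9.68 ± 0.0835 (SD, n = 5) under LD to 9.18 ± 0.0885 under HD, 1.42-fold lower (-0.51 ± 0.0509 SE on the log2 scale, limma adjusted p = 2.9e-06). Smad3, the TGF-beta and activin effector, was 1.39-fold lower, from 10.11 to 9.64 (limma adjusted p = 6.2e-07). Neither gene's groups overlapped. Usp15, a deubiquitinase that acts on SMADs and type I receptors, rose 1.24-fold, and Smad9 rose by 0.24 from a dim 5.59, or by 0.48 with the control-row scaling. The BMP effectors and the shared partner were named after their values were seen. Smad1 and Smad4 fell by 0.15 each (limma adjusted p = 0.0023 and 0.0012) without overlap of the groups, and Smad5 differed by -0.055 without passing. With the control-row scaling the difference of Smad4 was -0.28.

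In the list of other BMP-SMAD target genes, 5 of 10 were higher and 1 lower, together 60% beside 50.2% of all genes. Their median log2 change was 0.16. Atoh8, a bHLH gene that BMP9 and BMP6 induce in other cells, rose 1.20-fold from 6.27 ± 0.04 (SD, n = 5) to 6.53 ± 0.104 without overlap (limma adjusted p = 0.00053). Dlx2 and Nkx2-5, homeobox genes of development, rose by 0.22 and 0.21 at dim signals with overlapping groups (limma adjusted p = 0.0085 and 0.019). Hes1, which is also a Notch target, was 1.22-fold lower, at 8.40 in LD and 8.12 in HD (limma adjusted p = 3.2e-05). Nkx2-5 was not called with ordinary t statistics (adjusted p = 0.058). The count of 5 became 8 after quantile normalization and 9 with the control-row scaling. With that scaling the rises of Atoh8, Dlx2 and Nkx2-5 were 0.43, 0.44 and 0.36.

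The helix-loop-helix proteins that Id proteins bind went both ways, with 5 of 14 genes higher and 2 lower. Together these were 50%, beside 50.2% of all genes, and the list's median log2 change was 0.13. Twist1, a bHLH factor of epithelial-mesenchymal transition, rose 1.28-fold from 7.33 ± 0.133 (SD, n = 5) to 7.69 ± 0.0946 (limma adjusted p = 0.00033). Tcf4, an E protein gene, was 1.27-fold lower, from 9.26 to 8.91, without overlap (limma adjusted p = 5.5e-06). The other E protein genes, Tcf3 and Tcf12, were named after their values were seen. They differed by 0.13 and -0.11, and both passed. Tcf3 did not pass with the control-row scaling (0.076, adjusted p = 0.14). Twist2 and Hand2 rose by 0.23 and 0.22 at signals of 5.96 and 6.44 with overlapping groups. Twist2 was not called with ordinary t statistics (adjusted p = 0.073) or without LD array 2 or 5 or HD array 2 or 3 (adjusted p = 0.055 to 0.061). Hand2 was not called with array weights (0.15, adjusted p = 0.092) or ordinary t statistics (adjusted p = 0.058). With the control-row scaling their rises were 0.43 for Twist2 and 0.38 for Hand2. The count of 5 became 11 after quantile normalization, 10 with the control-row scaling and 2 with ordinary t statistics. It was 3 without LD array 2 or HD array 3 and 8 without LD array 4 or HD array 1.

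Among other partners of Id proteins and genes of their turnover, 5 of 10 were higher and 2 lower. Together these were 70%, beside 50.2% of all genes, and the list's median log2 change was 0.14. Rbl2, a relative of the retinoblastoma protein that Id2 can bind, was 1.28-fold lower, from 8.36 to 8.01 (limma adjusted p = 1.5e-05). Its relatives Rbl1 and Rb1 were named after their values were seen and did not fall. Rbl1 rose by 0.25 without overlap of the groups (limma adjusted p = 2e-04), and Rb1 differed by 0.098 without passing. Usp1, the deubiquitinase known to stabilise Id proteins, rose 1.25-fold from 9.74 ± 0.0634 (SD, n = 5) to 10.06 ± 0.0848 (limma adjusted p = 6.3e-05). Cops5 and Cops6, subunits of the COP9 signalosome, rose 1.26-fold and 1.23-fold. With the control-row scaling, Usp1 and Cops6 rose by 0.21 and 0.14 on the log2 scale instead of 0.32 and 0.30.

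**Figure D4:**
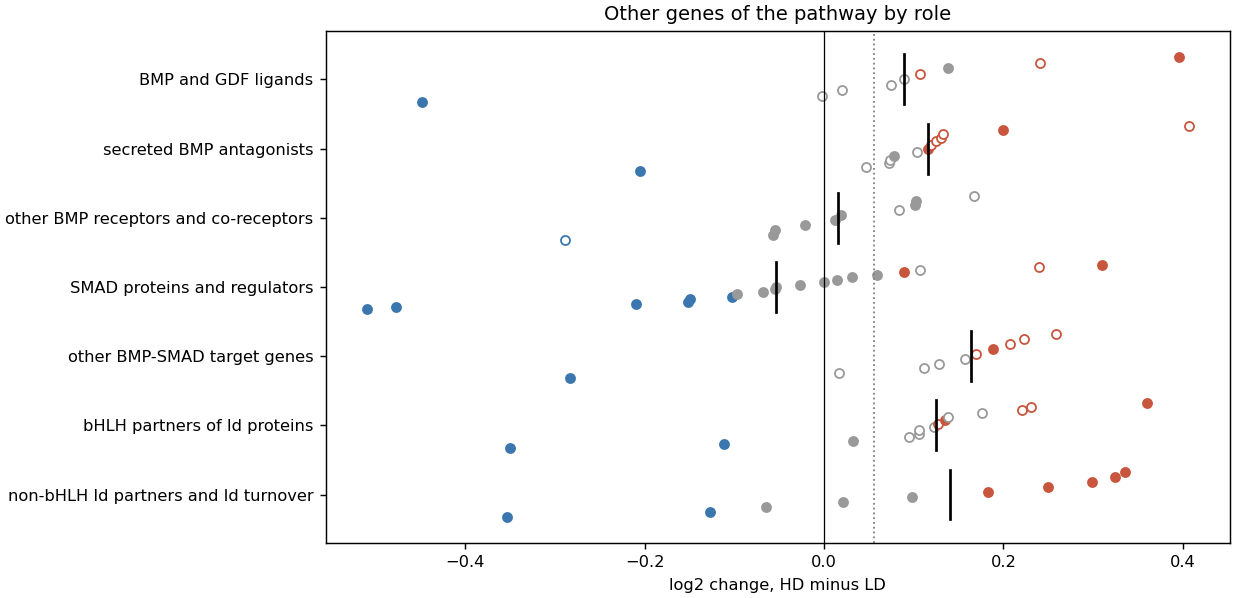
Log2 change (HD minus LD) of the 85 tested genes of the 7 lists, each point a gene. Red marks genes called higher, blue genes called lower and grey genes that did not pass. Filled points had a mean signal above 6.88 and open points a dimmer one. Black bars are list medians and the dotted line the median of all genes tested (0.056). Most red points of the antagonist and target lists are open, while the blue points of the SMAD list are filled.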

How the data were processed

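The series compared 4T1 cells in 2 collagen densities on Affymetrix MTA 1.0 arrays, 5 arrays per group. The deposited table holds log2 signals, and the submitters' processing notes name RMA as the method. The sources used here do not give its software, version, annotation or build. That the scale is log2 was read from the values. Of 72688 rows, 6732 were control features. The platform annotation named 1 symbol for 30604 rows and several for 2146. Gene IDs of 22818 rows matched RefSeq (GRCm38.p6), and 827 symbols were updated. For every gene the row of highest mean signal was kept, and 18119 genes whose row mean exceeded the median of the transcript rows (5.16) were tested. No scan dates or chip batches were used here.

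The HD against LD comparison used lmFit and eBayes of limma 3.58.1 under R 4.3.3, without covariates, two-sided, Benjamini-Hochberg adjusted over all genes tested, threshold 0.05. The fit was tested on simulated data. The members, lists and tests were chosen with earlier results of these data known. The named genes were all 10 members, up to 4 called genes per list with the largest change, and the 5 genes most like Id1; others are said to be named after their values were seen. Deviations of same-numbered LD and HD arrays correlated at 0.19, -0.089, -0.036, 0.21 and -0.023, and replicate numbers were therefore not used as pairing. No arrays were identical. The alternatives were a replicate block, quantile normalization, median centring, a linear scaling of each array on the medians of its negative and positive control rows, no floor or a floor at the 75th percentile (6.88), the mean of a gene's rows, trended and robust variances, array weights, ordinary t statistics and leaving out each array.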

Additional observations from a re-analysis of the deposited data

How the results depend on the processing

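The calls of Id2, Id3 and Bmpr2, and the lack of one for Id4, Smad6 and Smad7, held under all 21 alternatives. The log2 change of Id3 ran from 0.57 to 0.70 and that of Id2 from 0.22 to 0.45. That of Id1, a description, ran from 1.11 to 1.18. The replicate block changed no call of the 10 genes, with 9121 genes called in all, beside 9101. The number of the 10 genes called lower was 2 instead of 1 after quantile normalization and with the control-row scaling, through Bmpr1a. Bmp4 lost its call under 8 alternatives. Of the genes of the 7 lists, 42 were called. This became 64 with the control-row scaling and 27 with the floor at the 75th percentile, which leaves fewer genes to test. The control-row scaling moved 13 of the 25 named list genes by over 1.5 times, 10 to larger and 3 to smaller changes. Smurf2, a SMAD ubiquitin ligase called higher at 0.09, was at -0.030 with that scaling (adjusted p = 0.57). Of the 42 called list genes, 14 changed their call under at least 1 alternative. The cause of these changes was not tested. Signals near the negative control rows limit Bmp4, Bambi and the dim genes of the lists, and RMA compresses their folds.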
